A study of Mus musculus with 10 samples.

Results

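The comparison described here is that of liver from male mice homozygous for the S400D change of the mitochondrial protease HtrA2/Omi with liver from wild-type males. Its members are 6 of the 10 samples of the series: the 3 homozygous males (S400D/S400D) and the 3 wild-type males (WT/WT), chosen by their labels. All animals were C57BL6/N mice aged 2 months, and poly(A) RNA of the whole liver was sequenced. The 3 heterozygous males (S400D/WT) entered the fit only to estimate the spread, and the 1 homozygous female stayed out of the test. The labels do not say how the allele was made, which litters the animals came from or at what hour the livers were taken. They number the animals within a genotype without saying more, so each p-value reflects no more than how these particular libraries vary, which may in part be technical.

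HtrA2/Omi is a serine protease of the space between the mitochondrial membranes. It takes part in the control of protein quality there, and when it reaches the cytosol it binds and cleaves inhibitor of apoptosis proteins. Loss of its activity in mice is known for neurodegeneration and early death, and its serine at the changed position is known as a site of phosphorylation. The question that the design poses is which liver transcripts differ when both copies of the protease carry an aspartate at this serine.

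The affected codon is shown because every sample of the series is defined by it. In the reference (GRCm38, chromosome 6, minus strand) codon 400 of the single Htra2 transcript in the deposited table is the TCC at 83051753 to 83051755, in exon 7 of 8, and the coding sequence has 458 codons. The capitals below mark this serine codon within 63 bases of spliced coding sequence, which in the genome are interrupted by an intron. S400D replaces it by an aspartate codon whose bases the labels do not state.
Htra2 codon 400: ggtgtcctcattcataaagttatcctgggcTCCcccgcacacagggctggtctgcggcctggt

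The Htra2 transcript (chromosome 6, 83051266 to 83054571) was found in every library, at overlapping levels. It stood at 17.2, 12.2 and 12.5 CPM in wild-type males 1 to 3 and at 14.6, 15.5 and 14.5 CPM in homozygous males 1 to 3, where CPM is the count scaled to a common library total after TMM correction, which evens out differences in library composition. The groups overlapped, with a log2 fold change (homozygous minus wild-type) of 0.09 and a standard error (SE) of 0.14 (edgeR adjusted p = 0.792). A gene-level count cannot show the codon, so this value does not check the genotype labels.

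The libraries held 16240441 to 17264289 expected counts each. Hepatocyte markers were abundant in all 6 compared males (10 of 10 tested, 126600 to 166800 CPM in sum), and 0 of 13 adipose and pancreas markers were abundant enough to be tested. Single animals stood apart within their group. Homozygous male 1 was the lowest of the 6 males in 24 of 24 cholesterol synthesis genes and in 19 of 23 lipogenesis genes. Wild-type male 1 had more macrophage, endothelial and erythroid marker RNA than the other wild-type males, and wild-type male 2 was the highest of the 6 males in 27 of 32 male-biased genes.

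Of 12427 genes tested, 0 (0%) passed an adjusted p of 0.05 in edgeR, the lowest being 0.133. At an unadjusted p under 0.05 stood 1852 genes (14.9%), of which 848 (6.82% of those tested) were higher and 1004 (8.08%) lower in the homozygotes. With libraries scaled by their size alone the same split was 1037 higher and 665 lower, and the median of all genes moved from 0.00 to 0.06. DESeq2 called 114 genes higher (0.917%) and 193 lower (1.55%), and limma-voom called 0. Since no gene passed the main test, differences below are given as values and not as changes.

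A count that needs no model is whether all 3 homozygous males lay beyond all 3 wild-type males. This held upwards for 1202 genes (9.67%) and downwards for 1385 genes (11.1%), and these shares are the background against which each list is read. With libraries scaled by size alone they were 1521 genes (12.2%) and 900 genes (7.24%). Wild-type male 2, whose scaling factor was 0.906 against 0.975 and 1.03 in the other wild-type males, is the library that this choice moves most. When a single male is left out, fewer animals are compared and every gene meets the condition more easily. Counts under such omissions thus have a background of their own, which is not printed here, and a rise is not particular to a list.

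Low in the homozygotes with the smallest p of all was Krtcap2 (chromosome 3, 89245904 to 89249729), a small subunit of the oligosaccharyltransferase that attaches sugar chains to new secretory proteins. It read 38.7, 42.3 and 46.2 CPM in the wild-type males and 22.6, 25.0 and 25.3 CPM in the homozygous males. The groups were well apart, with a log2 fold change of -0.80 (SE 0.10, edgeR adjusted p = 0.133). Bcl3, an atypical I-kappa-B protein that partners NF-kappa-B subunits, went from 27.8, 38.6 and 38.9 CPM to 17.1, 16.7 and 17.9 CPM (log2 fold change -1.03, SE 0.13, edgeR adjusted p = 0.133).

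Nox4, an oxidase that makes hydrogen peroxide, went from 34.1, 38.2 and 38.0 CPM to 18.4, 20.2 and 18.7 CPM (log2 fold change -0.94, SE 0.15). Fabp5, a fatty acid-binding protein, had the widest gap of the 10 lower genes with the smallest p: 19.2, 31.0 and 56.7 CPM in wild-type against 2.39, 6.78 and 3.00 CPM in homozygous males (log2 fold change -3.13, SE 0.54).

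For Bud13 and Naa80 the other carriers of the allele are shown beside the homozygous males. Bud13, a splicing factor gene, read 11.2, 11.2 and 12.8 CPM in wild-type males, 4.72, 6.25 and 6.78 CPM in homozygous males, 5.74, 5.65 and 5.33 CPM in heterozygous males and 5.31 CPM in the female. Naa80, which encodes the enzyme that acetylates actin, read 54.8, 53.3 and 51.1 CPM in wild-type males, 38.9, 35.4 and 32.9 CPM in homozygous males and 39.8, 37.0 and 42.0 CPM in heterozygous males, with 43.8 CPM in the female. All carriers were set against the same 3 wild-type animals, so these values are not independent of each other.

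Among genes that were higher, Depp1, a gene induced by FOXO factors, had one of the smallest p values. It stood at 44.5, 64.8 and 42.0 CPM in wild-type against 113, 122 and 175 CPM in homozygous males (log2 fold change 1.44, SE 0.22, edgeR adjusted p = 0.147). Serpina7, the gene of thyroxine-binding globulin, went from 46.0, 25.5 and 35.8 CPM to 139, 117 and 156 CPM (log2 fold change 1.94, SE 0.37), and the female had 129 CPM. The joining chain of secreted antibodies, Jchain, read 1.99, 3.01 and 1.71 CPM in wild-type against 5.86, 7.36 and 7.20 CPM in homozygous males (log2 fold change 1.61, SE 0.25).

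The other genes of this set were lower (Sel1l3, Ifi35 and Hnmt) or higher (Nup62, Zfp36l2, Chpf2, Nrip1, Pdgfra, Spg20 and Lyve1) by log2 fold changes between -1.26 and 1.97. Their edgeR adjusted p was 0.147 in each case.

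**Figure D1:**
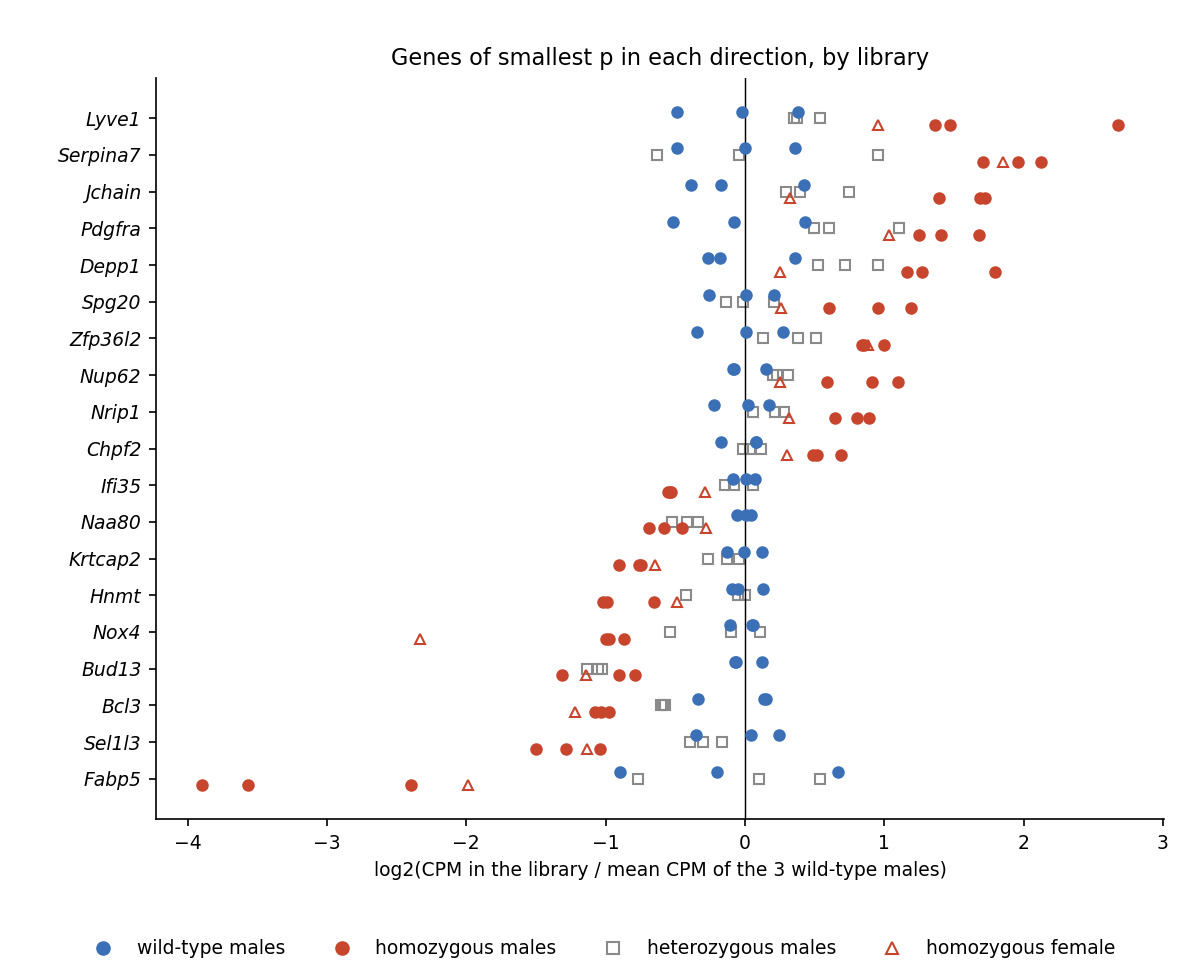
Level of 10 higher and 9 lower genes of smallest p, as log2 of CPM over the mean of the 3 wild-type males (horizontal axis), 1 row per gene. Blue circles are wild-type males, red circles homozygous males, grey squares heterozygous males and red triangles the homozygous female; blue and red circles do not overlap in any row, and the heterozygous squares of Bud13 lie among the red circles.

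HtrA2 works beside other proteases and chaperones of the mitochondrion, and the list of 25 such genes (including Htra2) leaned downwards. All 25 were tested, 17 were negative, and 9 lay wholly below the wild-type males (36.0%, against 11.1% of all genes), with a list median of -0.09. With libraries scaled by size alone 4 lay below (16%, against 7.24%). Without wild-type male 1 the median was -0.03, with 5 above in place of 1. Without homozygous male 2 there were 3 above and 12 below.

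The largest difference in this list went the other way. Clpx (chromosome 9, 65294251 to 65330658), the unfolding subunit of the ClpXP protease of the mitochondrial matrix, read 144, 121 and 142 CPM in wild-type against 315, 430 and 516 CPM in homozygous males. The groups did not overlap, with a log2 fold change of 1.63 (SE 0.44, edgeR adjusted p = 0.207, DESeq2 adjusted p = 0.00878). The heterozygous males read 61.6, 283 and 170 CPM and the female 117 CPM, which is below the wild-type range.

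Parl, a rhomboid protease of the inner membrane that is known to process PINK1, was at 30.5, 29.3 and 29.5 CPM in wild-type against 24.0, 25.1 and 22.9 CPM in homozygous males (log2 fold change -0.31, SE 0.09). Immp2l, a subunit of the inner membrane peptidase that trims imported proteins, went from 25.6, 25.2 and 26.9 CPM to 8.70, 16.6 and 19.2 CPM (log2 fold change -0.80, SE 0.24). Hspe1, the co-chaperonin of the matrix, went from 106, 119 and 110 CPM to 74.0, 94.7 and 88.6 CPM (log2 fold change -0.38, SE 0.11). These 3 groups of values did not overlap, while Hspa9, the most abundant gene of the list, did overlap at 528, 472 and 483 against 496, 508 and 491 CPM.

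Genes of mitophagy, the removal of damaged mitochondria, showed no common direction. Of 19 tested, 4 lay above and 4 below without overlap (21.1% each way, against 9.67% and 11.1% of all genes), and the median was -0.03. With libraries scaled by size alone 4 lay above (21.1%, against 12.2%) and 2 below (10.5%, against 7.24%). Without homozygous male 1 there were 8 below and a median of -0.11. The lower genes included the autophagy kinase Ulk1 (103, 134 and 141 against 92.6, 88.1 and 77.7 CPM, log2 fold change -0.55, SE 0.17). Higher were Gabarapl1 and Map1lc3a, which encode proteins of the autophagosome membrane. Gabarapl1 stood at 458, 397 and 417 CPM in wild-type against 652, 577 and 657 CPM in homozygous males (log2 fold change 0.57, SE 0.13).

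The inhibitors of apoptosis, caspases and other apoptosis genes, to which HtrA2 owes its name as a death protease, had few members apart. Of 30 tested, 1 lay above without overlap (3.33%, against 9.67% of all genes): Casp2, at 3.97, 3.96 and 2.44 against 4.89, 5.78 and 5.82 CPM. Below lay 2, Aifm1 and Casp8 (6.67%, against 11.1% of all genes), and the median was -0.03. With 1 male left out 2 to 4 lay above and 3 to 7 below, the 7 without wild-type male 1. Of 24 targets of ATF4, the transcription factor of the mitochondrial stress response, 2 lay above (8.33%) and 4 below (16.7%). Their median was -0.08, and the same shares of all genes apply. With 1 male left out 2 to 6 lay above, the 6 without homozygous male 2, and 4 to 7 below, the 7 without wild-type male 3.

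Subunits of the respiratory chain were lower by small amounts in almost every case. In complex I, which takes electrons from NADH, 35 of 36 tested subunits were negative, and 19 lay wholly below the wild-type males (52.8%, against 11.1% of all genes), with a median of -0.25. In complexes II to V 37 of 39 nuclear-encoded subunits were negative, all but Sdhd and Atp5b, and 16 lay below (41.0%) and 1, Sdhd, above, with a median of -0.21. Of all genes tested, 49.3% were negative.

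Ndufb3, an accessory subunit of complex I, had the smallest p of these: 48.8, 45.6 and 45.8 CPM in wild-type against 28.5, 33.9 and 34.2 CPM in homozygous males (log2 fold change -0.54, SE 0.10, edgeR adjusted p = 0.147). Cox5b of cytochrome oxidase went from 151, 159 and 153 CPM to 105, 112 and 135 CPM (log2 fold change -0.39, SE 0.12). Sdhb, the iron-sulphur subunit of complex II, went from 184, 203 and 226 CPM to 136, 155 and 173 CPM (log2 fold change -0.40, SE 0.13). Homozygous male 1 was the lowest of the 6 males in 28 of the 36 complex I genes and in 34 of the 39 others.

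These counts depend on single animals and on the scaling. Without homozygous male 1 the medians were -0.16 in complex I and -0.13 in complexes II to V. Without homozygous male 3 the members below without overlap rose to 30 and 33, a rise that fewer compared animals favour in every gene. With libraries scaled by size alone they were 10 of 36 (27.8%) and 9 of 39 (23.1%), against 7.24% of all genes.

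Proteins of the mitochondrial ribosome, which translates the few proteins encoded in mitochondrial DNA, had 67 of 78 tested genes negative. Below without overlap lay 33 (42.3%, against 11.1% of all genes) and above 0, with a median of -0.17. Mrpl55 read 20.2, 19.2 and 17.4 CPM in wild-type against 13.9, 14.0 and 14.6 CPM in homozygous males (log2 fold change -0.42, SE 0.10), without overlap. Size-only scaling left 15 of 78 below (19.2%, against 7.24%). The ribosome of the cytosol had 7 of 75 genes below (9.33%, against 11.1%) and a median of -0.06. Without wild-type male 1 there were 21 below and without homozygous male 3 there were 16, where fewer animals are compared.

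Gene length moved with the fold changes over all genes. Of 2138 tested genes with transcripts under 1000 bases 62.1% were negative and 18.9% lay below without overlap, while of 3873 genes of 3000 bases or more 38.7% were negative and 6.51% lay below. Complex I transcripts had a median length of 734 bases, those of complexes II to V 635 bases, mitochondrial ribosomal proteins 1052 bases and cytosolic ribosomal proteins 712 bases. The share below in complex I, complexes II to V and the mitochondrial ribosome exceeded 18.9%, and that in the cytosolic ribosome did not. The part of length in the results was not tested.

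Upstream regulators of mitochondrial gene expression were split. Ppargc1b, a coactivator of respiratory genes, read 20.5, 16 and 30.2 CPM in wild-type against 10.3, 14.0 and 6.60 CPM in homozygous males (log2 fold change -1.11, SE 0.29). Its relative Ppargc1a, which also drives gluconeogenesis, was higher at 16.8, 14.1 and 18.9 CPM against 12.8, 11.8 and 9.53 CPM (log2 fold change 0.54, SE 0.22). Pdhb, a subunit of pyruvate dehydrogenase, went from 132, 147 and 154 CPM to 99.5, 92.4 and 102 CPM (log2 fold change -0.55, SE 0.13). Of 21 enzymes of pyruvate dehydrogenase and the TCA cycle 5 lay below without overlap (23.8%, against 11.1% of all genes), and 8 without homozygous male 1 or 2, where fewer animals are compared. With size-only scaling 2 lay below (9.52%, against 7.24%).

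**Figure D2:**
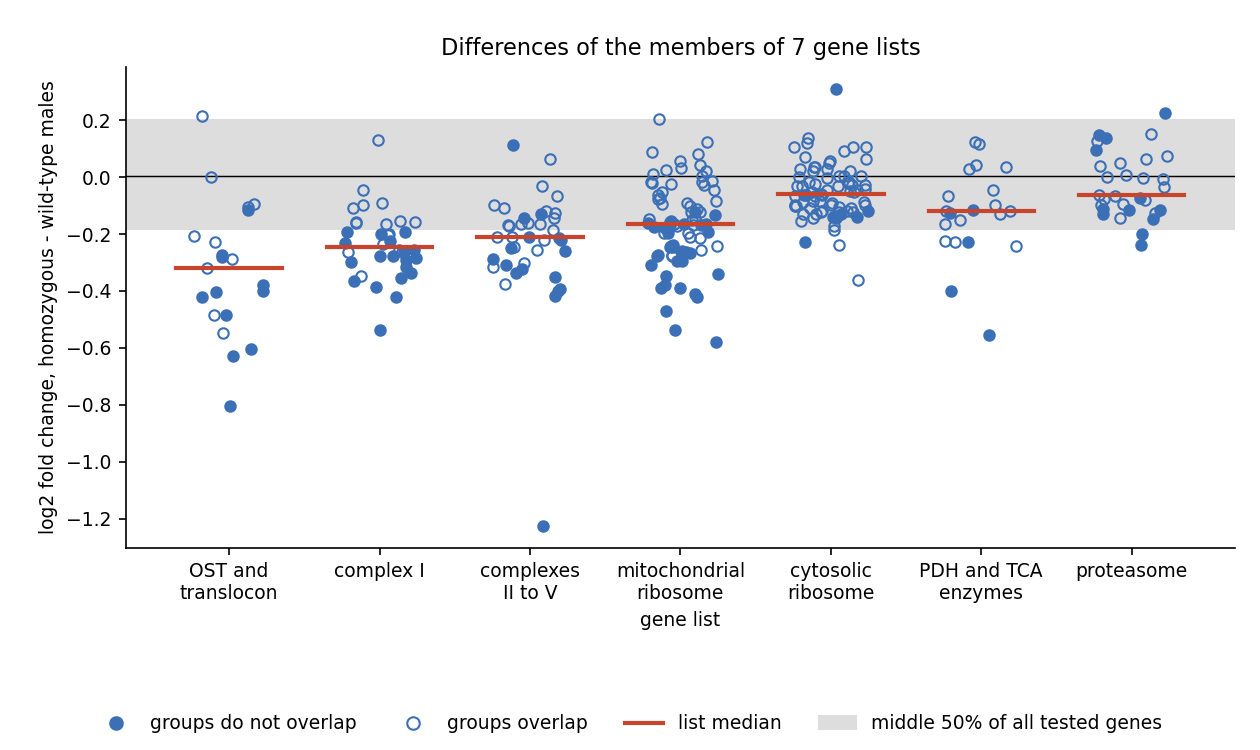
Log2 fold change of homozygous minus wild-type males (vertical axis) for each tested member of 7 gene lists. Filled circles are genes whose groups do not overlap, open circles genes that overlap, red bars list medians and the grey band the middle 50% of all tested genes; the medians of the first 3 lists (-0.32, -0.25 and -0.21) lie under the band and that of the cytosolic ribosome (-0.06) inside it.

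The oligosaccharyltransferase and the translocon, the channel through which secretory proteins enter the endoplasmic reticulum, were the list with the lowest median among the organelle machines. Of 21 tested genes 20 were negative, all but Stt3b, and 11 lay wholly below the wild-type males (52.4%, against 11.1%), with a median of -0.32. The medians with 1 animal left out ran from -0.42 to -0.31 and the members below from 12 to 16. With size-only scaling 8 lay below (38.1%, against 7.24%) and the median was -0.26. DESeq2 called 6 of the 21 lower.

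Beside Krtcap2 these were spread over both complexes. Ssr1 of the translocon-associated complex read 110, 119 and 111 CPM in wild-type against 77.6, 81.8 and 83.5 CPM in homozygous males (log2 fold change -0.49, SE 0.09). Sec61b, a subunit of the channel, read 40.9, 45.3 and 52.7 against 27.7, 33.4 and 30.3 CPM (log2 fold change -0.60, SE 0.11). Tmem258, another subunit of the oligosaccharyltransferase, read 25.5, 32.9 and 36.5 against 20.5, 22.5 and 18.3 CPM (log2 fold change -0.63, SE 0.14).

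The catalytic subunits of the enzyme differed from each other. Stt3a, which acts on proteins as they enter the channel, read 107, 115 and 115 CPM in wild-type against 90.1, 87.5 and 78.1 CPM in homozygous males. Stt3b, which acts after entry, read 66.9, 71.6 and 79.5 against 97.5, 77.2 and 78.4 CPM, with overlap. In the homozygous female Krtcap2 stood at 27.2 CPM, Ssr1 at 89.2 CPM and Sec61b at 32.8 CPM, below the wild-type males in each case.

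Chaperones of the endoplasmic reticulum and of the cytosol leaned the same way with fewer members apart. Of 26 unfolded protein response genes 20 were negative and 4 lay below (15.4%, against 11.1% of all genes): Derl2, Hsp90b1, Calr and Xbp1. Xbp1, a transcription factor of this response, read 190, 405 and 231 CPM in wild-type against 180, 129 and 129 CPM in homozygous males (log2 fold change -0.92, SE 0.35). Without homozygous male 1 there were 12 below and a median of -0.33 in place of -0.17. Without homozygous male 2 the median was -0.01, and without that animal or wild-type male 1 there were 7 below.

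Of 25 heat shock genes 22 were negative and 4 lay below without overlap (16%, against 11.1% of all genes). Dnaja1 read 273, 259 and 225 against 168, 122 and 179 CPM (log2 fold change -0.69, SE 0.19). A pair of cold-inducible RNA-binding proteins in this list went apart: Rbm3 was lower (42.4, 35.4 and 48.0 against 25.6, 28.0 and 23.9 CPM) and Cirbp higher (19.2, 19.4 and 20.5 against 23.3, 51.6 and 26.6 CPM). Without homozygous male 1 there were 11 heat shock genes below in place of 4, and without homozygous male 3, wild-type male 1 or wild-type male 3 there were 8. The median of -0.22 was -0.13 without homozygous male 2.

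The circadian clock is a loop in which BMAL1 (gene Arntl) with CLOCK or NPAS2 activates genes through E-box sequences, among them its own repressors. PER, CRY and BHLHE proteins close that loop, REV-ERB proteins (Nr1d1, Nr1d2) repress Arntl, and the factors DBP, TEF and HLF carry the rhythm to metabolic genes through D-box sequences. Over the 28 clock genes tested, 13 lay below and 6 above the wild-type males without overlap, where all genes had shares of 11.1% and 9.67%.

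To show where these elements lie, promoters of 4 such genes are given as RefSeq has them on GRCm38.p6, from 250 bases before to 50 bases after the start, read along the gene. Ciart (chr3:95882179-95882478, minus strand) is a repressor of CLOCK-BMAL1 and has 3 matches to the E-box CACGTG, and Bhlhe41 (chr6:145865371-145865670, minus strand) has 1. Per3 (chr4:151044616-151044915, minus strand) has 2 matches to the D-box TTANGTAA, and Arntl (chr7:113207261-113207560, plus strand; 1 of its 2 promoters) has 1 match to AGGTCA, a core sequence that REV-ERB proteins bind. Capitals mark the matches.
Ciart promoter: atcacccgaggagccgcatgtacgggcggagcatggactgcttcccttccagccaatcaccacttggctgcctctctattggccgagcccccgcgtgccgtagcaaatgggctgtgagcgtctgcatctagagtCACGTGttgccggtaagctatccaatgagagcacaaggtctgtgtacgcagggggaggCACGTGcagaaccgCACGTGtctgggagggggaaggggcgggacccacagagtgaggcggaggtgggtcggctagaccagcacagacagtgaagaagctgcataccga
Bhlhe41 promoter: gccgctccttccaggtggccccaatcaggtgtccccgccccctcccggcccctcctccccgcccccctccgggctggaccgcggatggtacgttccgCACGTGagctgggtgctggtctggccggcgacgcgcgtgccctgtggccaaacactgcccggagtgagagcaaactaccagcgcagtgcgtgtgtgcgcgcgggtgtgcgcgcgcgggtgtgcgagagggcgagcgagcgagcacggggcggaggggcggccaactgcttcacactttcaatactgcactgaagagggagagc
Per3 promoter: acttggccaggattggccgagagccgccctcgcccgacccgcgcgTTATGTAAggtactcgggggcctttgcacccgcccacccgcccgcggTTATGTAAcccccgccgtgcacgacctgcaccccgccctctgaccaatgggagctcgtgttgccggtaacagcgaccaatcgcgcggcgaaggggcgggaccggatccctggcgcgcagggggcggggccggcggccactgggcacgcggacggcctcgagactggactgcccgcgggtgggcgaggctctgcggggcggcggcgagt
Arntl promoter: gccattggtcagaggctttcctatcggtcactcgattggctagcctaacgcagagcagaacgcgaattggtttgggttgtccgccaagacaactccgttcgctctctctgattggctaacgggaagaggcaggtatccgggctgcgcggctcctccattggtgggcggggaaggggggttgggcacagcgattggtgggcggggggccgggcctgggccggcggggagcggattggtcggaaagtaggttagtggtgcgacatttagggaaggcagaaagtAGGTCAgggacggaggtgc

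Both strands were searched. Of 11 promoters (10 genes) of clock genes that lay below, 4 held CACGTG (36.4%), as did 2 of 9 promoters (22.2%) of clock genes that lay above and 9.68% of the 12794 promoters of tested genes. TTANGTAA stood in 1 of the 11 and in 1.57% of those of tested genes, and AGGTCA in 3 of 9 promoters (33.3%, 6 genes) of clock genes that lay above and in 13.3% of those of tested genes. Promoters were found for 24 of the 28 genes, and a match is no evidence of binding.

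In the positive limb 3 of 5 genes lay above (60%, against 9.67% of all genes). Arntl read 2.63, 2.43 and 4.22 CPM in wild-type against 17.3, 26.0 and 37.9 CPM in homozygous males (log2 fold change 3.13, SE 1.01, edgeR adjusted p = 0.25). Npas2 read 0.467, 0.256 and 0.550 against 2.10, 5.84 and 13.3 CPM (log2 fold change 4.02, SE 1.45), and Clock 25.4, 24.6 and 27.3 against 41.8, 34.9 and 46.6 CPM (log2 fold change 0.68, SE 0.29).

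In the negative limb 6 of 10 genes lay below (60%, against 11.1% of all genes), with a list median of -1.49. Per2 read 33.8, 51.8 and 43.4 CPM in wild-type against 7.73, 5.20 and 9.41 CPM in homozygous males, Per3 31.7, 38.4 and 41.6 against 3.30, 3.91 and 1.62 CPM. Ciart read 7.48, 12.3 and 22.4 against 3.41, 0.467 and 0.360 CPM, and Bhlhe41 4.73, 7.80 and 6.84 against 0.341, 0.643 and 0.240 CPM. Cry1 alone of these lay above, at 14.7, 10.2 and 44.9 CPM against 8.99, 7.99 and 10.1 CPM, and Per1, Cry2 and Nr1d1 overlapped.

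The spread among the homozygous males was wide in Nr1d1, a direct target of BMAL1: 73.2, 101 and 11.5 CPM, against 111, 86.2 and 122 CPM in the wild-type males. Homozygous male 3 was the lowest of the 6 males in 6 of the 10 negative limb genes and the highest in 5 of 5 positive limb genes. The 3 homozygotes thus did not stand at 1 common level.

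Among the outputs 8 of 14 lay below (57.1%, against 11.1% of all genes) and 2 above (14.3%, against 9.67%). Dbp, the factor that binds D-boxes, read 128, 147 and 156 CPM in wild-type against 4.61, 12.9 and 1.26 CPM in homozygous males (log2 fold change -4.52, SE 1.16, edgeR adjusted p = 0.206). Nfil3, which competes with DBP for the same sites, was higher, at 42.1, 42.0 and 77.3 CPM against 15.9, 9.08 and 13.5 CPM (log2 fold change 2.06, SE 0.49). Cys1 read 6.72, 6.71 and 9.17 against 3.41, 3.45 and 4.14 CPM (log2 fold change -1.04, SE 0.21).

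The animals outside the comparison varied in the same genes. Heterozygous male 2 had Arntl at 31.4, Per3 at 3.53 and Ciart at 0.0588 CPM, values like those of the homozygous males, and the homozygous female had 1.60, 65.8 and 22.8 CPM, values like those of the wild-type males. Sampling hour is not given in the labels, and hour and genotype cannot be told apart in the 6 compared males.

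**Figure D3:**
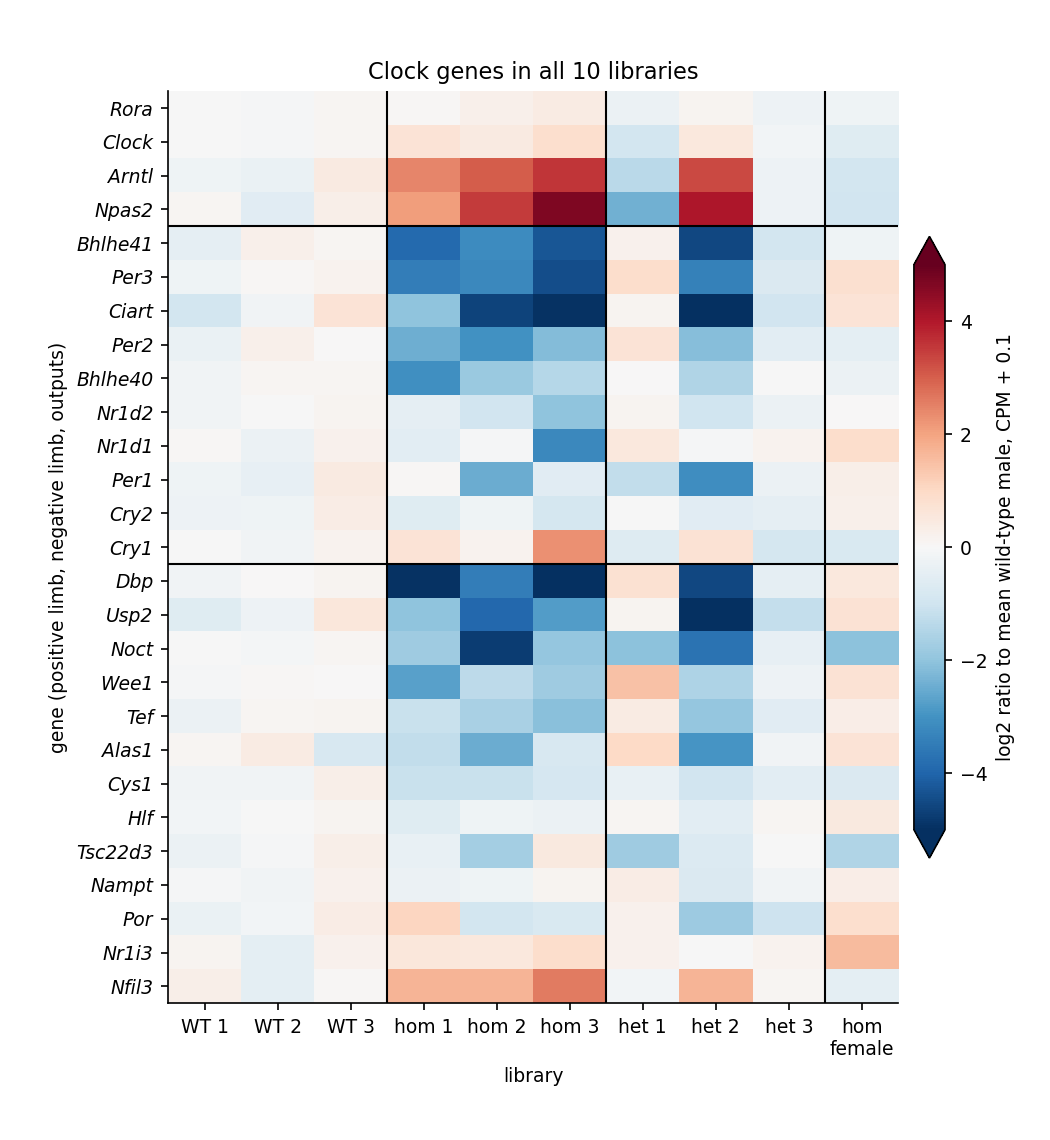
Clock genes (rows; positive limb, negative limb, then outputs) in all 10 libraries (columns), coloured by log2 of the ratio to the mean wild-type male after adding 0.1 CPM to both; colours end at 5 in either direction. The homozygous males and heterozygous male 2 are red for Arntl and Npas2 and blue for Per3, Ciart and Dbp, and in these 5 genes the homozygous female is nearer to the wild-type males.

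Fatty acid synthesis in liver is switched on by insulin and carbohydrate through SREBP1c (Srebf1) and ChREBP (Mlxipl). Of 23 genes of this list 22 were negative, all but Insig2, and 11 lay below without overlap (47.8%, against 11.1%), with a median of -1.10. The regulators Thrsp and Mid1ip1, which act together on acetyl-CoA carboxylase, had the smallest p. Mid1ip1 read 58.2, 96.1 and 92.3 CPM in wild-type against 14.9, 30.9 and 34.6 CPM in homozygous males (log2 fold change -1.62, SE 0.34), and Thrsp 206, 499 and 587 against 6.14, 45.8 and 63.4 CPM (log2 fold change -3.49, SE 0.84).

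Both upstream factors lay below the wild-type males, Srebf1 at 34.9, 197 and 178 CPM against 481, 301 and 319 CPM and Mlxipl at 505, 451 and 528 CPM against 610, 600 and 695 CPM. Fasn, the fatty acid synthase, read 378, 713 and 893 against 68.2, 320 and 299 CPM (log2 fold change -1.53, SE 0.53). Insig2, which holds SREBP proteins in the endoplasmic reticulum, was the single member above, at 182, 288 and 343 CPM against 152, 123 and 156 CPM (log2 fold change 0.91, SE 0.41).

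Without homozygous male 1 the lipogenesis median was -0.88 with 11 members below. Without homozygous male 2 there were 17 below, without wild-type male 1 there were 19, and without wild-type male 3 the median was -0.71. Cholesterol synthesis and uptake genes were negative in 22 of 24 cases, but only 1 lay below without overlap (4.17%, against 11.1% of all genes). Their median of -0.84 became -0.36 without homozygous male 1 and -0.55 without wild-type male 2. Without wild-type male 1 there were 18 below, and without homozygous male 2 there were 4.

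Of 28 glucose and glycogen genes 7 lay below (25.0%, against 11.1% of all genes) and 1, Pfkl, above (3.57%, against 9.67%). Glycogen synthase Gys2 read 262, 310 and 268 CPM in wild-type against 160, 136 and 132 CPM in homozygous males (log2 fold change -0.97, SE 0.26), and the branching enzyme Gbe1 103, 115 and 128 against 71.9, 85.2 and 78.7 CPM (log2 fold change -0.55, SE 0.14). Pfkfb3, which makes the activator of phosphofructokinase, read 20.0, 34.5 and 29.8 against 7.79, 3.21 and 6.72 CPM (log2 fold change -2.25, SE 0.63). Without homozygous male 3 there were 16 below and without wild-type male 1 there were 17, and the median of -0.25 ran from -0.42 without wild-type male 1 to -0.11 without wild-type male 3.

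Male mouse liver takes its sex-specific expression from pulses of growth hormone that act through STAT5b. Of 32 male-biased genes 31 were negative, all but Elovl3, and 20 lay wholly below the wild-type males (62.5%, against 11.1%), with a median of -1.26. With 1 animal left out the median ran from -1.44 to -0.96 and the members below from 20 to 24. DESeq2 called 12 of them lower.

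Cyp2u1, a fatty acid hydroxylase gene, read 11.8, 11.1 and 8.13 CPM in wild-type against 2.96, 4.61 and 4.98 CPM in homozygous males (log2 fold change -1.31, SE 0.23, edgeR adjusted p = 0.147). Hsd17b2, which oxidises sex steroids, read 188, 229 and 152 against 46.0, 103 and 77.1 CPM (log2 fold change -1.33, SE 0.26). Nudt7, a peroxisomal coenzyme A hydrolase, read 608, 912 and 332 against 38.3, 179 and 119 CPM (log2 fold change -2.46, SE 0.55). The urinary pheromone carrier Mup7 read 2156, 22540 and 3131 against 1740, 130 and 307 CPM, with wild-type male 2 far above the others, and reads of Mup genes cannot be assigned to 1 copy with certainty.

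The female-biased list was less uniform. Of 17 genes 13 were positive and 3 lay above without overlap (17.6%, against 9.67%), among them Slco1a4 and Slc22a26, which encode transporters. Cux2, a regulator of female-biased genes, was at 84.3 CPM in homozygous male 1 and at 1.75 and 0.480 CPM in the others, against 1.05, 0.639 and 11.7 CPM. The median of 0.82 was 0.26 without homozygous male 1, 0.27 without wild-type male 2 and 1.44 without wild-type male 1, and the members above numbered 6 without homozygous male 1 and 5 without wild-type male 1.

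The growth hormone axis itself had 2 of 16 genes below (12.5%, against 11.1% of all genes) and 1 above (6.25%, against 9.67%). With 1 male left out 2 to 4 lay below, the 4 without wild-type male 3, and 1 to 3 above, the 3 without homozygous male 2. Igf1 read 424, 566 and 474 CPM in wild-type against 285, 318 and 253 CPM in homozygous males (log2 fold change -0.78, SE 0.17, edgeR adjusted p = 0.156). Igfals, whose product carries IGF1 in blood, read 121, 162 and 119 against 78.4, 93.3 and 58.8 CPM (log2 fold change -0.80, SE 0.22). The receptor gene Ghr and Jak2 overlapped, and Stat5b lay above (69.6, 63.5 and 67.7 against 79.8, 89.6 and 105 CPM, log2 fold change 0.45, SE 0.23).

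Genes of insulin and FOXO signalling more often lay above. FOXO factors are held out of the nucleus by insulin and act in fasting. Of 25 genes 8 lay above without overlap (32.0%, against 9.67%) and 1, Pik3r1, below (4%, against 11.1%), and DESeq2 called 4 higher. Foxo1 itself read 27, 23.8 and 23.7 CPM in wild-type against 45.3, 33.1 and 43.8 CPM in homozygous males (log2 fold change 0.71, SE 0.14), the insulin receptor substrate Irs2 27.4, 26.9 and 29.6 against 47.9, 32.8 and 52.5 CPM (log2 fold change 0.67, SE 0.16).

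Other members above act in cell cycle exit and in fuel choice. Ccng2, an unusual cyclin that slows division, read 10.4, 8.12 and 12.5 against 18.7, 22.2 and 32.8 CPM (log2 fold change 1.25, SE 0.34), and Pdk4, which shuts pyruvate dehydrogenase, 3.91, 0.511 and 1.34 against 6.88, 8.70 and 10.0 CPM (log2 fold change 2.13, SE 0.75). Pck1, the most abundant member and the key enzyme of gluconeogenesis, overlapped at 3197, 2789 and 3683 against 6748, 2670 and 4227 CPM. The list median was 0.13, and with 1 animal left out the members above numbered 8 to 11. Without any 1 of the homozygous males 4 members lay below in place of 1, and without wild-type male 1 or 2 there were 3.

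Of 22 cell cycle inhibitors and p53 targets 7 lay above (31.8%, against 9.67% of all genes) and 1, Tob1, below (4.55%, against 11.1%). Cdkn1a, the p21 inhibitor of cyclin-dependent kinases, read 2.45, 1.53 and 1.47 CPM in wild-type against 27.5, 9.11 and 26.6 CPM in homozygous males (log2 fold change 3.52, SE 0.72, edgeR adjusted p = 0.155), with 2.11 CPM in the female. Mdm2, Ccng1 and Trp53 itself overlapped. The list median of 0.13 was 0.27 without wild-type male 1 and 0.08 without wild-type male 2. Of 20 glucocorticoid-induced genes 4 lay above (20.0%, against 9.67% of all genes). They were led by Cdkn1a and by Zbtb16 at 3.97, 12.3 and 12.4 against 53.7, 67.2 and 55.2 CPM (log2 fold change 2.62, SE 0.57), while the classical targets Tat and Tsc22d3 overlapped. Without homozygous male 2, where fewer animals are compared, 8 members of this list lay above in place of 4, with a median of 0.47 in place of 0.29.

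**Figure D4:**
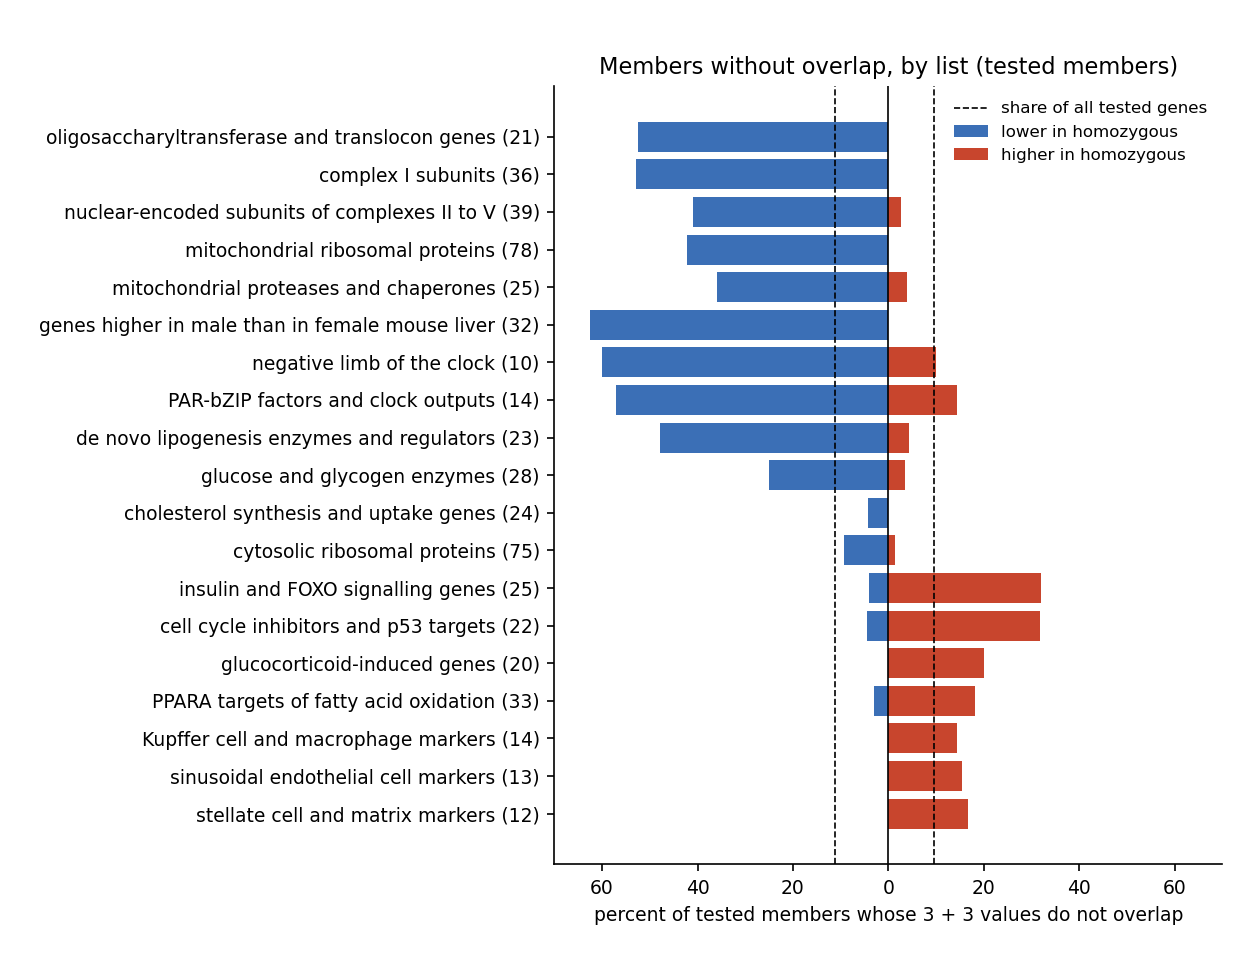
Percent of tested members (number in brackets) of 19 lists whose 3 homozygous and 3 wild-type values do not overlap, lower to the left in blue and higher to the right in red. Dashed lines mark the shares of all tested genes (11.1% lower, 9.67% higher); the male-biased list reaches 62.5% lower and the insulin and FOXO list 32.0% higher.

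Summed markers of macrophages, endothelium and stellate cells were higher in each homozygous male than in wild-type males 2 and 3. Those of bile duct cells were not, at 58.5, 65.0 and 57.4 CPM in wild-type against 39.9, 65.0 and 48.3 CPM in homozygous males (5 of 7 negative, median -0.48), nor were those of neutrophils, at 5.37, 5.88 and 4.28 against 4.66, 5.55 and 6 CPM (2 of 3 negative). Whole liver was sequenced, so more cells of a type and more RNA per cell cannot be told apart. All 14 tested Kupffer cell and macrophage markers were positive (median 0.63) and 2 lay above without overlap (14.3%, against 9.67%), Marco and Cd163. Their summed level was 623, 257 and 201 CPM in wild-type males 1 to 3 and 543, 579 and 574 CPM in the homozygous males, so that wild-type male 1 exceeded all homozygotes. The heterozygous males and the female had Clec4f, the defining Kupffer cell lectin, at 50.1, 92.8, 103 and 100 CPM, and the homozygous males at 94.8, 104 and 104 CPM.

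The same held for sinusoidal endothelium. All 13 markers were positive (median 0.56) and 2, Lyve1 and Eng, lay above (15.4%, against 9.67% of all genes). Their sums were 459, 187 and 205 against 413, 430 and 436 CPM. Lyve1 read 4.91, 2.69 and 3.73 CPM in wild-type against 24.2, 10.5 and 9.71 CPM in homozygous males (log2 fold change 1.97, SE 0.37). Stellate cells and matrix gave 10 positive members of 12 (median 0.78), with Dcn at 125, 65.1 and 53.6 against 157, 199 and 177 CPM (log2 fold change 1.13, SE 0.32) and the collagen gene Col1a1 overlapping at 13.5, 9.53 and 5.01 against 2.05, 20.4 and 5.52 CPM.

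Without wild-type male 1 the medians of macrophage, endothelial and stellate markers became 1.33, 1.13 and 1.12, and 13 of 14, 13 of 13 and 8 of 12 lay above. Fewer wild-type males are compared there, so the 9.67% of all genes is not the background of these counts. Without homozygous male 1 there were 4 macrophage and 5 stellate markers above. Without wild-type male 3 the medians were 0.36, 0.39 and 0.59, and without wild-type male 2 they were 0.45, 0.36 and 0.52. Erythroid markers went the other way, with 6 of 6 negative (median -1.53) and a median of 1.08 without wild-type male 1, whose summed level of 1977 CPM compares with 160 to 294 CPM in the other 5 males. The part of these cells in the gene groups above was not tested.

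Without wild-type male 1, edgeR called 18 genes at an adjusted p of 0.05, 14 higher and 4 lower. The 4 lower ones were Krtcap2, Bcl3, Sel1l3 and Obp2a, and the higher ones included the markers Ecm1, Eng, Fcgr2b, Stab1 and Clec4g. Without homozygous male 2 it called Csrp3 and Klhdc7a lower. No other omission of a single male gave a call.

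**Figure D5:**
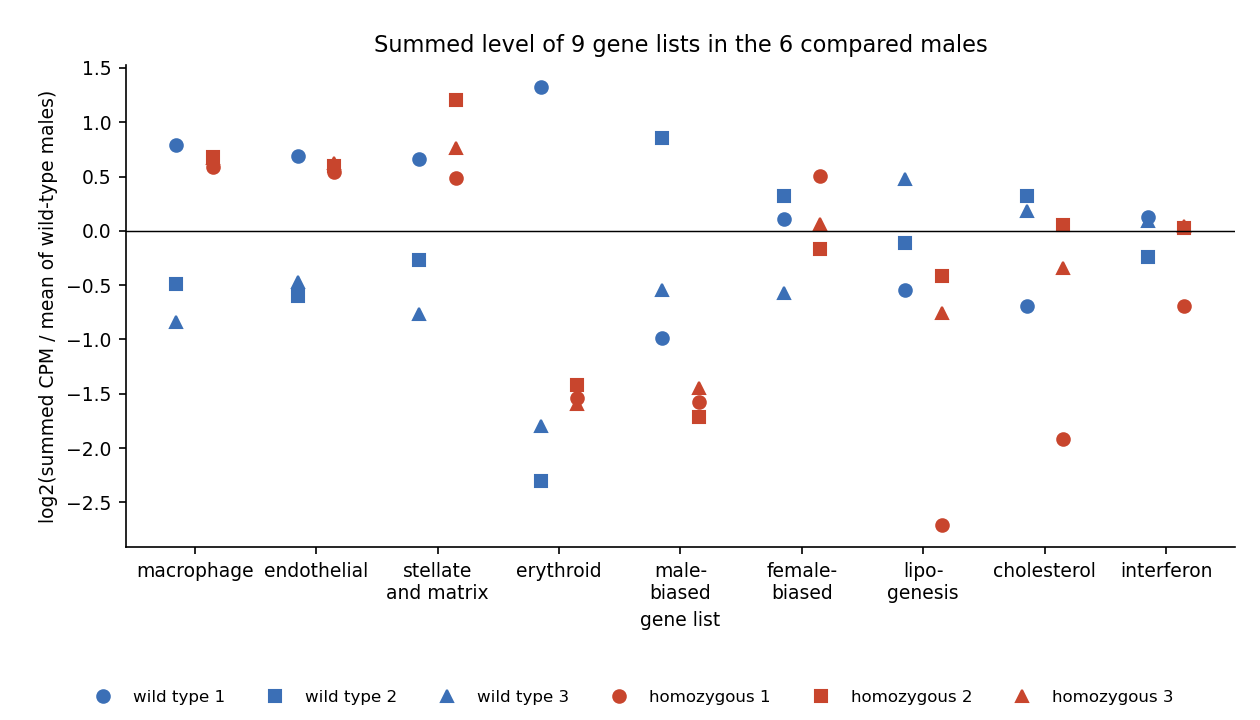
Summed CPM of 9 gene lists in each of the 6 compared males, as log2 of the ratio to the mean of the wild-type males (vertical axis); blue symbols are wild-type and red symbols homozygous males, with a circle, square and triangle for animals 1 to 3. Wild-type male 1 lies with the homozygotes for macrophage and endothelial markers, wild-type male 2 stands alone for male-biased genes, and homozygous male 1 is the lowest for lipogenesis, cholesterol and interferon genes.

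The largest negative fold change was that of Entpd4, a nucleotide hydrolase gene (chromosome 14, 69337151 to 69366742), with 3.15, 13.7 and 3.30 CPM in the wild-type males and 0 reads in the homozygous males. A floor of 3 counts per library (0.171 to 0.180 CPM) makes this at least 37.3-fold lower. Its near-identical neighbour Entpd4b overlapped at 33.7, 19.6 and 28.7 against 26.2, 31.0 and 27.2 CPM. The sum of both was 36.9, 33.3 and 32.0 against 26.2, 31.0 and 27.2 CPM, and reads cannot be assigned to 1 of the copies with certainty. Entpd4 had 0 reads in the heterozygous males and the female as well.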

How the data were processed

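Poly(A) RNA of whole mouse liver was sequenced, 1 library per animal. The authors deposited expected counts, FPKM and TPM for 77712 transcripts, 94.5% of whose nonzero sums by gene lay within 0.05 of a whole number. HISAT and Bowtie2, with the build GRCm38.p6, are listed per the submitters' processing notes, with neither version nor role. The quantifier is not given here. The TPM values and 9 columns of group averages were not used.

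The authors' expected counts were summed by gene (19271 genes) and rounded. The 9 males entered 1 fit of edgeR 4.0.16 (R 4.3.3; quasi-likelihood test, TMM scaling, filterByExpr, Benjamini-Hochberg adjustment over 12427 genes, threshold 0.05), and homozygous males were compared with wild-type males. Printed CPM of the males use TMM factors over the 9 males. Those of the female use TMM factors over all 10 libraries, so her values are scaled separately from the males. The counts rest on 3 animals a group. Alternatives were DESeq2 1.42.0, limma 3.58.1 (voom, and log2 of the deposited FPKM plus 1 or 0.1), other scalings and filters, a replicate block and single males left out. The fit was tested on simulated data.

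The members and gene lists were chosen with earlier results of these data known. Named were Htra2, 10 regularly named genes without overlap in each direction by p and another 10 by size of change (mean of at least 1 or 5 CPM in the higher group), the clock, lipogenesis, growth hormone and male-biased lists, cell type markers, and in other lists up to 4 members of smallest p under 0.05 with the most abundant one. Not all of these are printed, and some genes are not reported here. Aifm1, Casp8, Sdhd, Stt3a, Stt3b, Cirbp, Pfkl, Slc22a26, Pik3r1, Mdm2, Ccng1, Trp53, Csrp3, Klhdc7a, Obp2a, Cyp4a14 and Entpd4b fall outside this rule and were named after their values were seen, as were the 4 promoters shown. Mup genes, Entpd4 with Entpd4b, and other near-identical copies are uncertain.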

Additional observations from a re-analysis of the deposited data

How the results depend on the processing

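The count of 0 genes past the adjusted threshold held with limma-voom, with DESeq2 size factors, with library size alone, under both other filters, with only the 6 compared males, with all 10 samples and on both FPKM scales. DESeq2 called 307. With single males left out edgeR called 0 to 18 genes, 2 of them without homozygous male 2 and 18 without wild-type male 1. Genes at an unadjusted p under 0.05 numbered 1121 (without wild-type male 2) to 2198 (without wild-type male 1). With the replicate number as a block edgeR called 0 genes, with 1591 at an unadjusted p under 0.05. The numbers did not pair the samples: same-numbered animals had correlations of -0.186, -0.058 and -0.088. Of 900 list medians under alternatives, 49 changed sign, in 17 of 45 lists. In 10 of these lists the median (-0.084 to 0.1519) was smaller than the spread between the homozygous males: apoptosis (0.0116), mitophagy (0.0096 to 0.0296), AP-1 genes (0.0101 to 0.0301), urea cycle and zonation (0.0019 to 0.02), biogenesis regulators (-0.0019), lipid storage (-0.0726 to -0.0031), bile acid genes (-0.0766 to -0.0011), growth hormone signalling (-0.1873 to -0.0012), acute phase proteins (-0.0759 to -0.0174) and xenobiotic metabolism (-0.1403 to -0.0007), with the changed values in brackets. The other 12 changes were in ATF4 targets (0.0162 and 0.0283 on FPKM plus 1 and 0.1, -0.1749 to 0.0061 with 1 male left out, the last without wild-type male 1), proteasome subunits (0.0137 on both FPKM scales), cytosolic ribosomal proteins (0.0026 on both FPKM scales, -0.1016 to 0.0193 with 1 male left out, the last without wild-type male 3), lymphocyte markers (-0.0204 with at least 1 CPM in 3 samples), neutrophil markers (-0.443 to 0.2688 with 1 male left out, the last without wild-type male 2), cholangiocyte markers (0.0087 on FPKM plus 0.1) and erythroid markers (-2.0609 to 1.0756 with 1 male left out, the last without wild-type male 1). The cause was not tested.

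Fold changes were followed for the 108 genes whose fold or direction is stated, and not for genes given only as overlapping. Of their 2160 values under alternatives 6 changed sign, in Elovl3 and Htra2, whose groups overlapped. Elovl3, the exception among male-biased genes, was at -0.6487 in limma-voom, -0.1607 with the replicate block, -0.4107 and -0.5678 on FPKM plus 1 and 0.1, and between -0.0476 (without homozygous male 3) and 1.2058 with 1 male left out. Htra2 was between -0.003 (without wild-type male 2) and 0.266.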

Other observations

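Drug-metabolising enzymes lay above the wild-type males in 5 of 30 cases (16.7%, against 9.67% of all genes) and below in 2 (6.67%, against 11.1%). There were 11 above without homozygous male 1 and 6 below without wild-type male 2. Cyp2b10, the classical target of the receptor CAR, read 1.17, 0.320 and 1.41 CPM in wild-type and 18.5, 3.50 and 2.94 CPM in homozygous males (log2 fold change 3.09, SE 0.83, edgeR adjusted p = 0.207). Genes of fatty acid oxidation under PPAR-alpha lay above in 6 of 33 cases (18.2%, against 9.67%) and below in 1 (3.03%, against 11.1%). Without wild-type male 1 there were 13 above, where fewer animals are compared. Their median of 0.11 was 0.38 without wild-type male 1 and 0.01 without wild-type male 2. Cyp4a14, a hydroxylase of fatty acids, read 543, 16.2 and 407 against 2184, 924 and 1229 CPM.

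Antioxidant genes had 3 of 27 members above (11.1%, against 9.67% of all genes) and 6 below (22.2%, against 11.1%). With size-only scaling these were 3 (11.1%, against 12.2%) and 5 (18.5%, against 7.24%), and with 1 male left out 3 to 5 above, the 5 without homozygous male 1 or 3, and 6 to 10 below, the 10 without wild-type male 2. Hmox1, which degrades heme, read 17.8, 8.70 and 9.53 against 28.4, 21.4 and 26.4 CPM (log2 fold change 1.08, SE 0.31), and the mitochondrial peroxidase gene Prdx5 215, 255 and 270 against 162, 187 and 204 CPM (log2 fold change -0.42, SE 0.13). Of 25 cell cycle genes 1 lay above (4%, against 9.67%), Mcm7 of the replicative helicase, and 3 lay below (12%, against 11.1%). Ccne1 (cyclin E1) read 1.69, 3.58 and 2.81 against 0.0569, 0.467 and 0.240 CPM. Of 34 interferon-induced genes 5 lay below (14.7%, against 11.1% of all genes), Ifi35 with the smallest p. With size-only scaling 4 did so (11.8%, against 7.24%). Homozygous male 1 was the lowest of the 6 males in 31 of the 34. Without wild-type male 2 there were 18 below and without homozygous male 2 there were 13, where fewer animals are compared.

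Within 5 Mb on each side of Htra2 72 genes were tested. Of these, 6 lay above (8.33%, against 9.67% of all genes) and 13 below (18.1%, against 11.1%) without overlap. Whether their position plays a part was not tested.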
